A study of Drosophila melanogaster with 4 samples.

Results

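Among the 9931 genes measured in salivary glands of Drosophila melanogaster larvae, 35 stood near 0 in both wild-type libraries and were plainly present in both libraries of larvae without functional JIL-1. They were chosen by their CPM (counts scaled to a common library size: each count divided by the sum of its column, times 1e6): under 1 CPM in both wild-type libraries and at least 3 CPM in both JIL-1 null libraries. Of 46 genes that met these thresholds, 11 were set aside by name, namely those of the Eig71E, Cyp, Gst, CR, sno, Cpr and Lys groups and a few single genes, among them CadN. The set was therefore picked on the mutant against wild-type values themselves, and the size of that difference is given below as a description and not as a result.

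JIL-1 is a kinase of interphase chromosomes that phosphorylates histone H3 in open, gene-rich interbands of the giant polytene chromosomes of the gland. In its absence a histone mark of heterochromatin is known to spread along the chromosome arms. The salivary gland of the third instar is a secretory tissue devoted to glue protein, in which genes of the nervous system, germ line or epidermis are normally little expressed.

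Total RNA was sequenced from glands of 2 groups, JIL-1-/- larvae of the null allele Z2 (2 libraries) and wild-type larvae (2 libraries), both in the third instar. The labels name no strain for the wild type, no sex and no number of glands, and do not say that libraries of a group came from separate animals, so errors measure only the spread between these libraries, which may be technical. The deposited counts summed to 8071769 and 11369094 in JIL-1 null and to 6222322 and 8496047 in wild type, so that 1 CPM equals between 6.22 and 11.4 counts. The gland label was borne out by its own genes, with 12 of 12 listed gland genes present and a summed level of 318000 and 310000 CPM in JIL-1 null and of 295000 and 318000 CPM in wild type. The fat body list, the most abundant of the other tissues, summed to 39500 and 41300 CPM in JIL-1 null and to 60200 and 64700 CPM in wild type. JIL-1 itself had 449 and 660 counts in JIL-1 null and 597 and 608 in wild type, with a log2 fold change of JIL-1 null over wild type of -0.61 ± 0.12 (standard error; Benjamini-Hochberg adjusted p = 0.0147 in the quasi-likelihood test of edgeR). Without JIL-1 null library 1 that adjusted p was 0.108, and without library 2 it was 0.121.

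The description of the set as genes found only in the mutant was not borne out by the counts. Just 2 of the 35, mthl8 and CG43133, had no count in either wild-type library, and 33 had at least 1. In another 7 genes a single wild-type library was at 0, and 12 genes in all had 3 counts or fewer in each wild-type library, the level taken as the limit of detection. The total per gene had a median of 112 counts in JIL-1 null, with a range from 64 to 578, and a median of 7 counts in wild type, with a range from 0 to 14. Summed over the 35 genes there were 2377 and 2620 counts in JIL-1 null, 0.0294% and 0.0230% of those libraries, and 96 and 135 counts in wild type, 0.00154% and 0.00159%. For the 12 genes at or under that limit, the counts cannot decide whether transcripts were present in wild type. The others of the 35 stood at a trace level there.

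**Figure D1:**
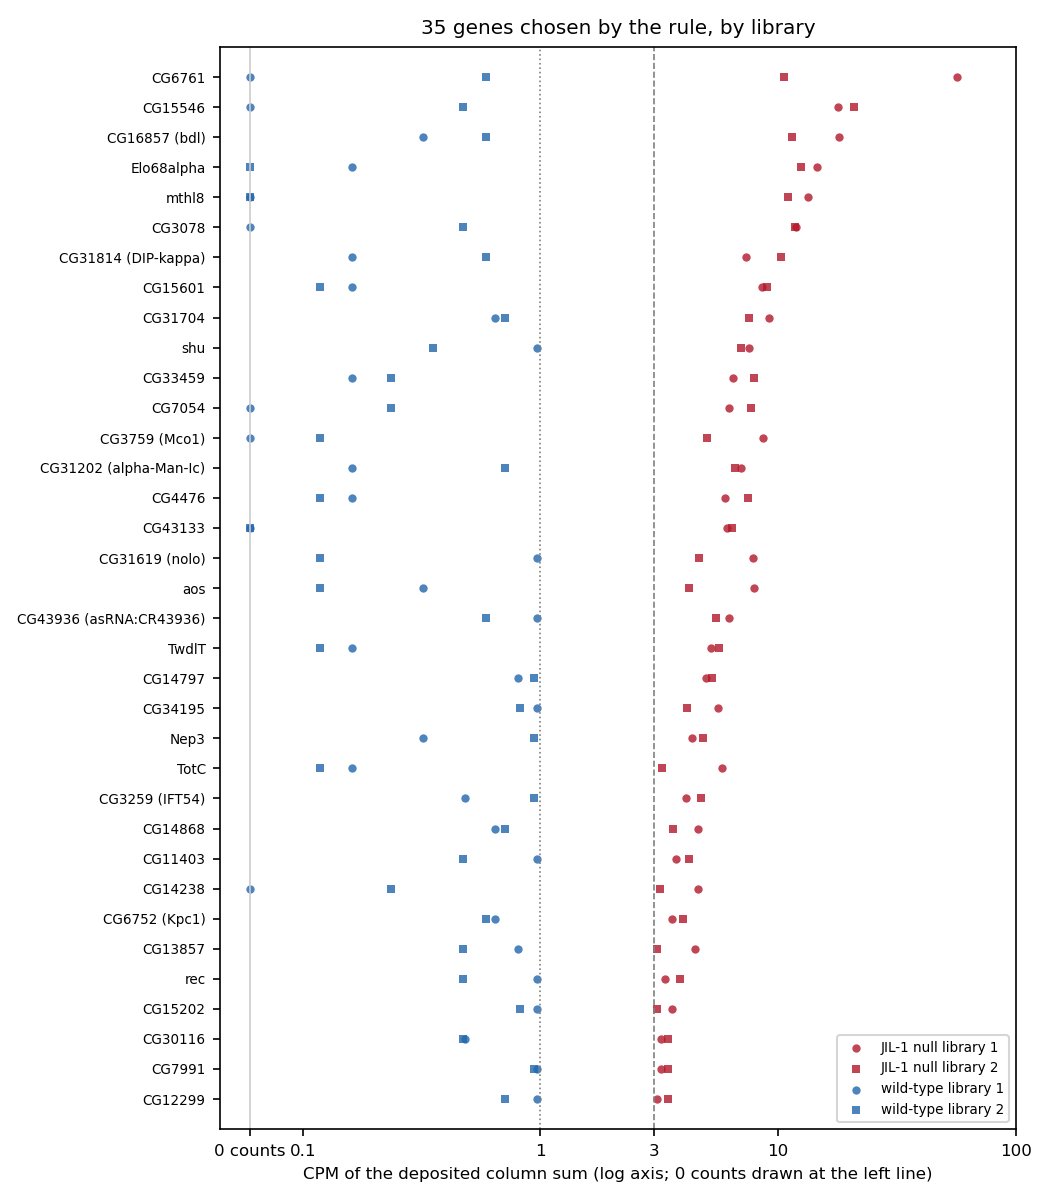
CPM of each of the 35 genes in each library on a log axis, ordered by mean level in JIL-1 null, with circles for library 1 and squares for library 2 of each genotype and the thresholds at 1 and 3 CPM as dotted and dashed lines. The gap between red and blue points is set by the choice of the genes; mthl8 and CG43133 are the 2 genes with both wild-type points at 0 counts.

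The set sat inside a large pool of weakly expressed genes. In all, 1792 genes of the table were under 1 CPM in both wild-type libraries, their median level in JIL-1 null was 0.344 CPM, and 2.57% of them met the upper threshold before names were set aside. The same thresholds with the genotypes exchanged gave 39 genes, against 46 as applied here, and 36 against 35 once the listed names were set aside. Without wild-type library 1 the exchanged rule gave 77 genes, against 50. All 35 genes passed the filter on low counts and all were called higher by edgeR, beside 13.5% of the 7958 genes tested (30.7% were called in either direction). In the authors' deposited table the false discovery rate was under 0.05 for all 35, and among all 9931 genes 22.6% had such a rate and were higher in JIL-1 null. Since the rule used the same contrast, nothing is read from either count.

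Seen per length, the set was of ordinary abundance in the mutant. In the authors' deposited table, RPKM (reads scaled by transcript length and library size) pooled over the JIL-1 null libraries ran from 0.131 for CG30116 to 15.1 for CG43936. The median of the 35 genes was 2.62 RPKM in JIL-1 null, against 3.25 RPKM for the median of all genes of the table, and 15 of the 35 lay above that table median. After CG43936 the highest levels per length were those of Elo68alpha with 14.3 RPKM, CG43133 with 11.5 RPKM, CG15546 with 10.6 RPKM and CG31704 with 10.1 RPKM in JIL-1 null. Fewer cells expressing a gene and less RNA in each cell cannot be told apart in such bulk libraries.

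Of the 35 genes, 19 are known only by a CG number and 16 have another current symbol, and 34 encode proteins. The exception is CG43936, which the current annotation (BDGP6) lists as the noncoding antisense RNA asRNA:CR43936.

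The receptor and signalling genes of the set begin with mthl8 (FBgn0052475, arm 3L), which encodes a methuselah-like receptor of the G protein-coupled class. It had 107 and 125 counts in the JIL-1 null libraries and 0 and 0 in the wild-type libraries. With 3 counts taken as the limit in each wild-type library it was at least 29.0-fold higher in JIL-1 null. The gene aos encodes Argos, a secreted antagonist of the epidermal growth factor receptor. It had 64 and 48 counts in JIL-1 null and 2 and 1 in wild type, a ratio of pooled CPM of 28.3 with an exact 95% counting interval from 9.43 to 139. Intervals of this kind cover counting error only. Nep3, of the neprilysin family of metallopeptidases, had 35 and 55 counts in JIL-1 null and 2 and 8 in wild type (ratio 6.81, interval 3.54 to 14.7). TotC belongs to the Turandot family of secreted, stress-induced humoral proteins. It had 47 and 37 counts in JIL-1 null and 1 and 1 in wild type, a ratio of 31.8 with an interval from 8.53 to 267.

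Genes of the cell surface and of the extracellular matrix formed a further part. CG16857, now named bdl, encodes a membrane protein of the immunoglobulin superfamily known from the nervous system. It had 146 and 130 counts in JIL-1 null and 2 and 5 in wild type (ratio 29.9, interval 14.3 to 74.9). CG31814, now DIP-kappa, encodes another immunoglobulin superfamily protein, of a group that binds the Dpr proteins of neurons, and had 59 and 117 counts in JIL-1 null against 1 and 5 in wild type (ratio 22.2). CG31619, now nolo, had 63 and 53 counts in JIL-1 null and 6 and 1 in wild type. Its wild-type libraries stood at 0.964 and 0.118 CPM, so that it was close to the lower threshold in a single library. TwdlT, a gene of the Tweedle family of cuticle proteins, had 42 and 64 counts in JIL-1 null and 1 and 1 in wild type (ratio 40.1, interval 10.8 to 336). CG3759, now Mco1, encodes a multicopper oxidase and had 70 and 57 counts in JIL-1 null and 0 and 1 in wild type (ratio 96.2, interval 17.0 to 3827).

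The enzymes of metabolism and of the secretory pathway included the fatty acid elongase gene Elo68alpha (FBgn0052072, arm 3L). It had 117 and 142 counts in JIL-1 null and 1 and 0 in wild type, a ratio of 196 whose interval, from 34.9 to 7774, shows how little a single wild-type read fixes the fold. CG31202, now alpha-Man-Ic, carries the name of a class I alpha-mannosidase, enzymes that trim N-linked glycans. It had 56 and 75 counts in JIL-1 null and 1 and 6 in wild type (ratio 14.2, interval 6.69 to 35.9).

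Genes of chromosome biology, of the germ line and of cell structure were present at lower counts. The gene shu encodes a co-chaperone of the piRNA pathway, known for its role in the germ line, and had 61 and 79 counts in JIL-1 null and 6 and 3 in wild type (ratio 11.8, interval 6.03 to 26.3). The gene rec, which encodes a meiotic protein of the MCM family needed for crossovers, had 27 and 44 counts in JIL-1 null and 6 and 4 in wild type (ratio 5.38, interval 2.76 to 11.7). CG11403, listed with the synonym Chl1, had 30 and 48 counts in JIL-1 null and 6 and 4 in wild type. CG3259, now IFT54, carries the name of a protein of intraflagellar transport, the traffic that builds cilia, and had 33 and 54 counts in JIL-1 null and 3 and 8 in wild type. CG6752, now Kpc1, had 29 and 45 counts in JIL-1 null and 4 and 5 in wild type. These 5 genes stood between 5.38- and 11.8-fold higher in JIL-1 null by pooled CPM, below mthl8, Elo68alpha and the surface genes.

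The genes with the most counts in JIL-1 null, CG6761 and CG15546, are known only by a number, and bdl, Elo68alpha and mthl8 ranked next. CG6761 had 458 and 120 counts in JIL-1 null and 0 and 5 in wild type (ratio 87.5, interval 37.3 to 271). CG15546 had 144 and 237 counts in JIL-1 null and 0 and 4 in wild type (ratio 72.1, interval 27.9 to 266). CG3078 had 96 and 134 counts in JIL-1 null and 0 and 4 in wild type. All 3 were at 0 in wild-type library 1, the shallowest library, and had 4 or 5 counts in library 2. CG15601 had 69 and 102 counts in JIL-1 null and 1 and 1 in wild type. CG4476, listed with the synonym DmNAT3, had 48 and 85 counts in JIL-1 null and 1 and 1 in wild type. CG7054 had 50 and 87 counts in JIL-1 null and 0 and 2 in wild type. The groups lie far apart in each of these genes, as the thresholds require. CG33459, listed with the serine protease synonym SP238, had 52 and 90 counts in JIL-1 null and 1 and 2 in wild type. CG43133 had 49 and 73 counts in JIL-1 null and 0 and 0 in wild type, and was at least 14.96-fold higher in JIL-1 null with the limit of 3 counts per library. CG14238 had 37 and 36 counts in JIL-1 null and 0 and 2 in wild type. The remaining CG genes, CG14797, CG34195, CG14868, CG13857, CG15202, CG30116, CG7991 and CG12299, reached a mean of between 3.26 and 5.12 CPM in JIL-1 null, and their ratios of pooled CPM ran from 3.52 to 7.03.

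The thresholds cut through a continuum. Just inside the upper one were CG15202, with 3.59 and 3.08 CPM in JIL-1 null, CG13857, with 4.46 and 3.08 CPM, and CG12299, with 3.10 and 3.43 CPM. Just outside it were U3-55K, with 3.34 and 2.99 CPM in JIL-1 null, Cbp53E, with 2.97 and 3.17 CPM, and CG13946, with 19.0 and 2.81 CPM. At the lower threshold, rec, shu and CG11403 were admitted with 6 counts in wild-type library 1, which is 0.964 CPM. The same held for nolo, CG43936, CG34195, CG15202, CG7991 and CG12299. In wild-type library 2, CG14797, Nep3, IFT54 and CG7991 had 8 counts, which is 0.942 CPM. Ndc80, phr6-4 and CG42713 were left out with 9 counts in wild-type library 2, which is 1.06 CPM. CG42713, left out by a single count, stood at 23.7 and 27.4 CPM in JIL-1 null and at 0.161 and 1.06 CPM in wild type.

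The rule asked for at least 3 CPM in both JIL-1 null libraries and so kept out genes present in a single one, such as CG13946. Among the genes kept, CPM in JIL-1 null libraries 1 and 2 differed by a median of 1.17-fold, 18 of the 35 genes were higher in library 1, and for 28 genes the exact 95% counting interval of the ratio included 1. The gene that stood apart was CG6761, at 56.7 and 10.6 CPM in JIL-1 null libraries 1 and 2, a ratio of 5.38 with an interval from 4.39 to 6.63. It was the sole gene of the set with more than a 2-fold difference between these libraries. The other 6 genes whose intervals left out 1 were bdl, DIP-kappa, Mco1, nolo, aos and TotC, with ratios of library 1 over library 2 from 0.710 for DIP-kappa to 1.88 for aos. Of these, DIP-kappa alone was lower in library 1.

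**Figure D2:**
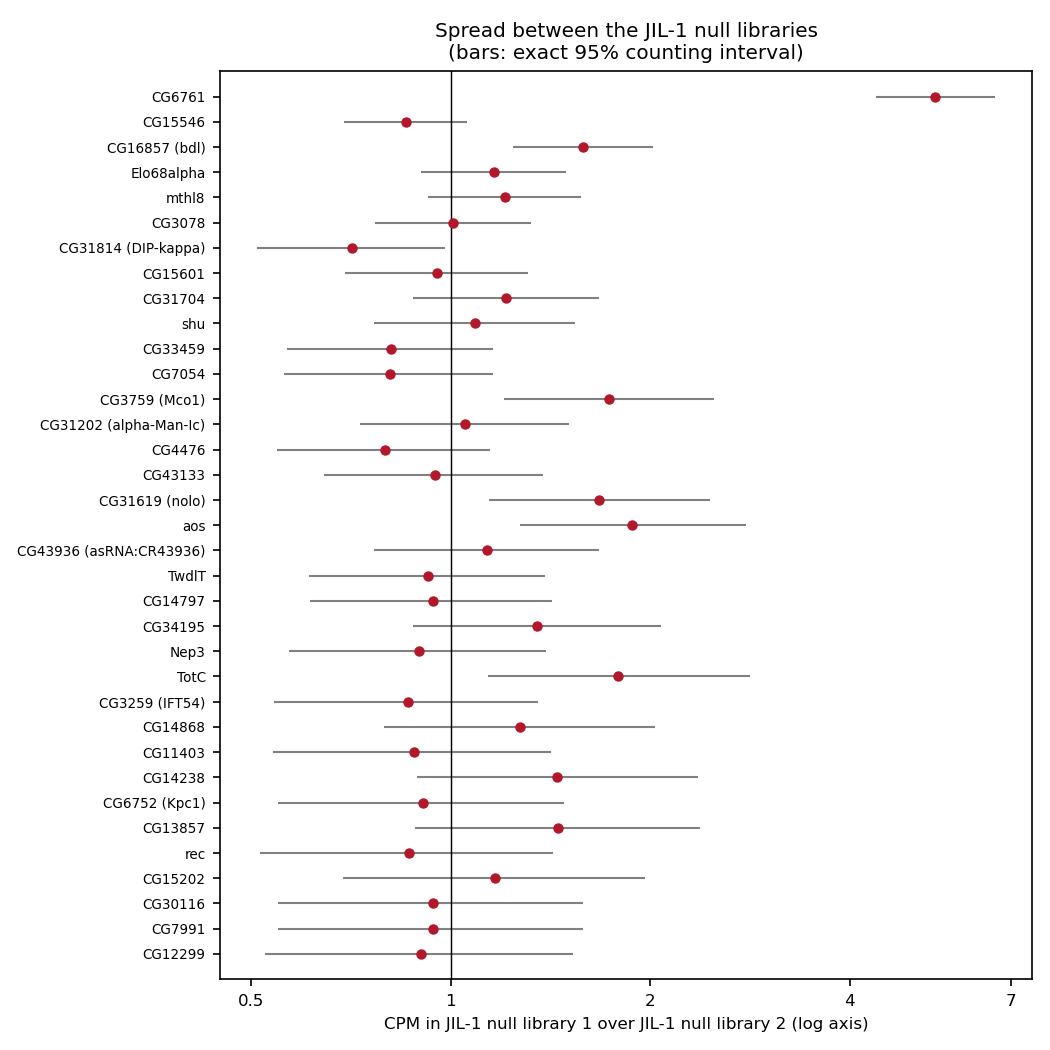
Ratio of CPM in JIL-1 null library 1 over JIL-1 null library 2 for the 35 genes on a log axis, with exact 95% counting intervals as bars. Most intervals cross 1, and CG6761 stands apart at 5.38.

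Members lay on all large chromosome arms, and their distribution over arms was not tested. Of the 35, 11 lay on 3R, 7 on X, 7 on 2L, 6 on 3L, 4 on 2R and 0 on chromosome 4. The share on X was 20.0% of the set, against 16.4% of the 9523 table genes that the annotation places. The share on 3R was 31.4%, against 24.4%, and that on 2R was 11.4%, against 20.5%. The one pair of members next to each other in the order of table genes was CG43936 and CG31704.

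These genes overlap on opposite strands of 2L. CG31704 had 74 and 86 counts in JIL-1 null and 4 and 6 in wild type. CG43936 had 50 and 62 counts in JIL-1 null and 6 and 5 in wild type. Whether the counting used strand is not given in the sources used here, so their reads cannot be told apart. In all, 11 of the 35 genes overlap another gene of the table in the current annotation, 10 of them on the opposite strand. The same-strand case is TwdlT with NepYr, which had 11 and 15 counts in JIL-1 null and 0 and 0 in wild type. The partner of CG13857, CG7059, rose as well, to 206 and 273 counts in JIL-1 null against 14 and 54 in wild type (log2 fold change 2.38 ± 0.42, adjusted p = 0.00958 by edgeR, and 0.0635 without JIL-1 null library 2). The partner of aos, CG33158, rose to 192 and 230 counts in JIL-1 null against 90 and 73 in wild type (log2 fold change 0.89 ± 0.24, adjusted p = 0.0356 by edgeR, and 0.162 and 0.122 without JIL-1 null libraries 1 and 2 in turn and 0.0684 without wild-type library 2). The partner of IFT54, su(Hw), which encodes an insulator protein, had 460 and 720 counts in JIL-1 null and 347 and 285 in wild type, and did not pass the test (adjusted p = 0.171 by edgeR). How far reads of these partners entered the counts of the 35 genes was not tested.

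The genes next to the set, which the rule did not use, were examined in the same edgeR fit. Of the 47 table genes that directly neighbour a member in the annotation without being one, 36 were tested, and 8 rose and 4 fell. These shares of 22.2% and 11.1% stand beside 13.5% of all tested genes that rose and 17.2% that fell. The median log2 fold change of the neighbours was 0.19, against 0.03 for all tested genes. Leaving out JIL-1 null library 1 left 3 higher and 2 lower neighbours, and leaving out JIL-1 null library 2 left 2 and 2. With all libraries, 24 of the 36 did not pass the test.

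The neighbour that rose the most was TotA, which flanks TotC and encodes the best known Turandot protein. It had 735 and 538 CPM in JIL-1 null and 5.17 and 5.44 CPM in wild type (CPM here and below with TMM factors, which correct for composition; log2 fold change 6.90 ± 0.23, adjusted p = 1e-04 by edgeR). TotB, on the other side of TotC, had 3 and 2 counts in JIL-1 null and 3 and 0 in wild type, too few to be tested. Another Turandot gene, Victoria, had 1 and 3 counts in JIL-1 null and 1 and 0 in wild type. Turandot genes are related in sequence, and how reads shared between TotA and TotC were counted is not given in the sources used here, so that the level of TotC is uncertain beside the 5944 and 6370 counts of TotA in JIL-1 null. CG5224, now GstE11, a glutathione S-transferase gene next to CG30116, rose to 36.0 and 38.3 CPM in JIL-1 null, against 14.2 and 13.8 CPM in wild type (log2 fold change 1.41 ± 0.12, adjusted p = 0.000929 by edgeR). The other neighbours that rose were CG7059, Atet, CG9281, CG3091, CG18507 and CG32071. In edgeR fits without JIL-1 null libraries 1 and 2 in turn, the adjusted p of TotA was 0.000347 and 0.00208, and that of CG5224 was 0.0124 and 0.0267.

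Among the neighbours that fell, Fbp2, a fat body protein gene next to Mco1, dropped to 565 and 592 CPM in JIL-1 null, against 1665 and 1979 CPM in wild type (log2 fold change -1.66 ± 0.14, adjusted p = 0.000760 by edgeR). Of 8 fat body genes tested, edgeR called 4 lower, Fbp2 included, and 1 higher, beside 17.2% and 13.5% of all tested genes. DESeq2 called 6 lower and 1 higher. Fbp1, Lsp2 and Lsd-1 fell, with log2 fold changes of -1.25 ± 0.17, -0.84 ± 0.14 and -1.65 ± 0.17. Lsp1gamma rose to 31509 and 56510 counts in JIL-1 null, against 47 and 60 in wild type (log2 fold change 9.175 ± 0.21, adjusted p = 6.17e-05 by edgeR). Lsp1alpha did not pass the test (adjusted p = 0.661 by edgeR). The list sum was 39500 and 41300 CPM in JIL-1 null and 60200 and 64700 CPM in wild type. Without JIL-1 null libraries 1 and 2 in turn the adjusted p of Fbp1 was 0.086 and 0.149 and that of Lsp2 was 0.17 and 0.192, while Lsd-1 stayed called (edgeR). The part of fat body tissue in the change of Fbp2 was not tested. Slc45-1, a sugar transporter family gene next to CG4476, was at 5.91 ± 1.19 CPM in JIL-1 null and 21.5 ± 0.942 CPM in wild type (SD, n = 2 each; log2 fold change -1.85 ± 0.19, adjusted p = 0.00173 by edgeR). CG13930, next to CG7991, had 0 and 0 counts in JIL-1 null and 14 and 14 in wild type, at least 6.13-fold lower in JIL-1 null with 3 counts as the limit per library. The fourth was ari-1, a ubiquitin ligase gene next to CG43133, with a log2 fold change of -0.53 ± 0.10 (adjusted p = 0.0140 by edgeR). Without JIL-1 null libraries 1 and 2 in turn, the adjusted p of ari-1 was 0.145 and 0.125 and that of CG13930 was 0.0591 and 0.0788, while Fbp2 and Slc45-1 stayed under 0.05 (edgeR). Beside Mco1, CG4476, CG7991 and CG43133, a gene lower in JIL-1 null thus directly adjoined a gene of the set.

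Elo68alpha lies 5 table genes from JIL-1 itself on 3L, and genes on both sides of it had more counts in both JIL-1 null libraries. These neighbours were picked out after their values were seen. In order from JIL-1 the stretch held Elo68beta, Elo68alpha, CG32071, CG32073 and CG12522, and Elo68alpha is there by the rule. Elo68beta, the sister elongase gene, had 8 and 11 counts in JIL-1 null and 0 and 0 in wild type, at least 2.35-fold higher in JIL-1 null and too low for the test. CG32071 had 1843 and 1645 CPM in JIL-1 null and 250 and 35.1 CPM in wild type (log2 fold change 3.62 ± 0.82, adjusted p = 0.0223 by edgeR). CG32073 had 751 and 634 CPM in JIL-1 null and 14.1 and 4.68 CPM in wild type (log2 fold change 6.24 ± 0.45, adjusted p = 0.000507 by edgeR). CG12522 had 128 and 127 CPM in JIL-1 null and 15.2 and 1.27 CPM in wild type (log2 fold change 4.03 ± 0.71, adjusted p = 0.00922 by edgeR). The wild-type libraries differed several-fold from each other in these 3 genes, library 1 being the higher each time, while the JIL-1 null libraries lay close together. Without JIL-1 null libraries 1 and 2 in turn, the adjusted p of CG32071 was 0.0718 and 0.104, that of CG12522 was 0.0449 and 0.0784, and that of CG32073 was 0.00512 and 0.0127 (edgeR).

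**Figure D3:**
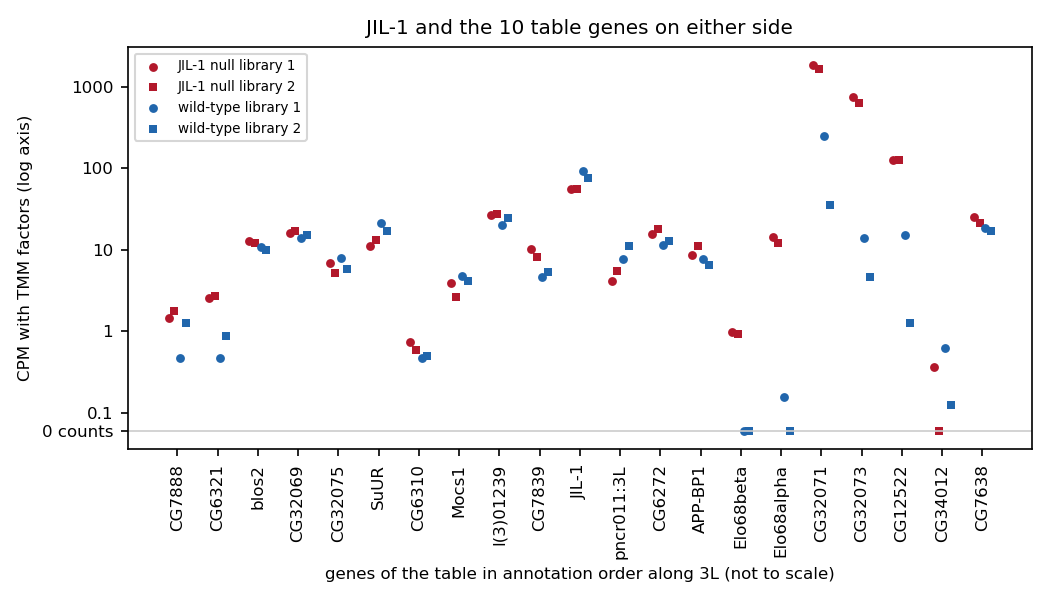
CPM with TMM factors in each library for JIL-1 and the 10 table genes on either side of it, in annotation order along 3L and not to scale, with circles for library 1 and squares for library 2. From Elo68beta to CG12522 the red JIL-1 null points lie above the blue wild-type points, while JIL-1 is lower in JIL-1 null.

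Calls around JIL-1 went in both directions. Of the 20 table genes within 10 places of JIL-1, 1 is a member, and of the other genes 16 were tested, of which 5 rose and 2 fell, or 31.2% and 12.5%, beside 13.5% and 17.2% of all tested genes. Besides CG32071, CG32073 and CG12522 the genes that rose were CG7839, directly next to JIL-1, and CG6321, with log2 fold changes of 0.84 ± 0.21 (adjusted p = 0.0296) and 1.91 ± 0.49 (adjusted p = 0.0307, both by edgeR). The genes that fell were SuUR and pncr011:3L, with log2 fold changes of -0.65 ± 0.18 and -0.96 ± 0.26. Leaving out JIL-1 null library 1 left 2 higher and 0 lower, leaving out JIL-1 null library 2 left 1 and 0, and leaving out wild-type library 1 left 3 and 1; CG7839, CG6321, SuUR and pncr011:3L were each lost in the fits without JIL-1 null library 1. The mutant allele and any DNA linked to it on 3L are the same split of the samples and cannot be told apart. The other members on 3L lay farther from JIL-1 in table order, CG6761 at 66 genes, CG4476 at 127 genes, aos at 454 genes, CG7991 at 731 genes and mthl8 at 906 genes.

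The families of the named members did not follow them as a whole. These families, 10 in all, were recognised by gene symbol alone, and a shared symbol does not show relation by sequence. In them 48 genes counted as relatives of members were in the table, and 29 were tested. Of these 7 rose and 6 fell, which is 24.1% and 20.7%, beside 13.5% and 17.2% of all tested genes. Their median log2 fold change was -0.05, against 0.03 for all tested genes. The counts of higher relatives were 2 and 2 without JIL-1 null libraries 1 and 2 in turn and 3 without wild-type library 2, and that of lower relatives was 1 without JIL-1 null library 2. The relatives that rose were TotA, Baldspot, alpha-Man-I, CG11874 (alpha-Man-Ib), Mcm2, Mcm5 and Mcm7. Symbols missed the elongase family genes CG31522 and CG31523, which were not counted as relatives. Both fell, with log2 fold changes of -1.64 and -0.81.

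Among methuselah receptors mthl8 was the sole member of the set, and no other passed the test as higher. Of the 16 listed genes 11 were in the table. Of 8 tested besides mthl8, 0 rose, 4 fell and 4 did not pass the test, with a median log2 fold change of -0.65. Among all tested genes 13.5% rose and 17.2% fell, so that 0 of 8 higher is not read as a result. At an unadjusted p under 0.05 edgeR found 0 higher and 5 lower, and DESeq2 called 0 higher and 4 lower. The sole positive log2 fold change was that of mthl14, 0.12 ± 0.58. The receptor gene mthl4 fell to 17.9 and 18.6 CPM in JIL-1 null, against 53.8 and 83.5 CPM in wild type (log2 fold change -1.91 ± 0.22, adjusted p = 0.00211 by edgeR). The genes mthl9 and mthl5 fell by 2.36 and 0.99 on the log2 scale, and mth, the founding member known for its effect on life span, by 0.69. Leaving out JIL-1 null library 1 left 2 of these 4 calls, mthl4 and mthl5, and leaving out JIL-1 null library 2 left mthl4 alone, with an adjusted p of 0.0335 (edgeR). Summed over the listed genes without mthl8, the level was 103 and 115 CPM of the column sum in JIL-1 null, against 192 and 228 CPM in wild type.

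Fatty acid elongation and desaturation genes went both ways. Of the 27 listed genes 16 were in the table, and the median log2 fold change of 9 tested besides Elo68alpha was 0.16. Of these 9, 3 rose and 3 fell, beside 13.5% and 17.2% of all tested genes. Baldspot, an elongase gene of long chain fatty acids, rose to 41.5 and 38.4 CPM in JIL-1 null, against 14.7 and 14.2 CPM in wild type (log2 fold change 1.47 ± 0.12, adjusted p = 0.000769 by edgeR). The desaturase gene ifc and the enoyl reductase gene Sc2 rose by less, with log2 fold changes of 0.51 ± 0.12 and 0.45 ± 0.12. The elongase family genes CG31522 and CG31523 fell by 1.64 and 0.81 on the log2 scale, and CG1444, now spidey, which encodes a ketoacyl reductase, by 0.91. DESeq2 called 1 higher and 2 lower, leaving out JIL-1 null library 1 left 1 higher and 2 lower, and leaving out JIL-1 null library 2 left 1 higher, Baldspot, and 1 lower, CG31522. Desaturase desat1, the most abundant of the list, was at 249 CPM in JIL-1 null and 224 CPM in wild type and did not pass the test (adjusted p = 0.361 by edgeR). Their summed level without Elo68alpha was 458 and 467 CPM in JIL-1 null and 428 and 426 CPM in wild type.

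**Figure D4:**
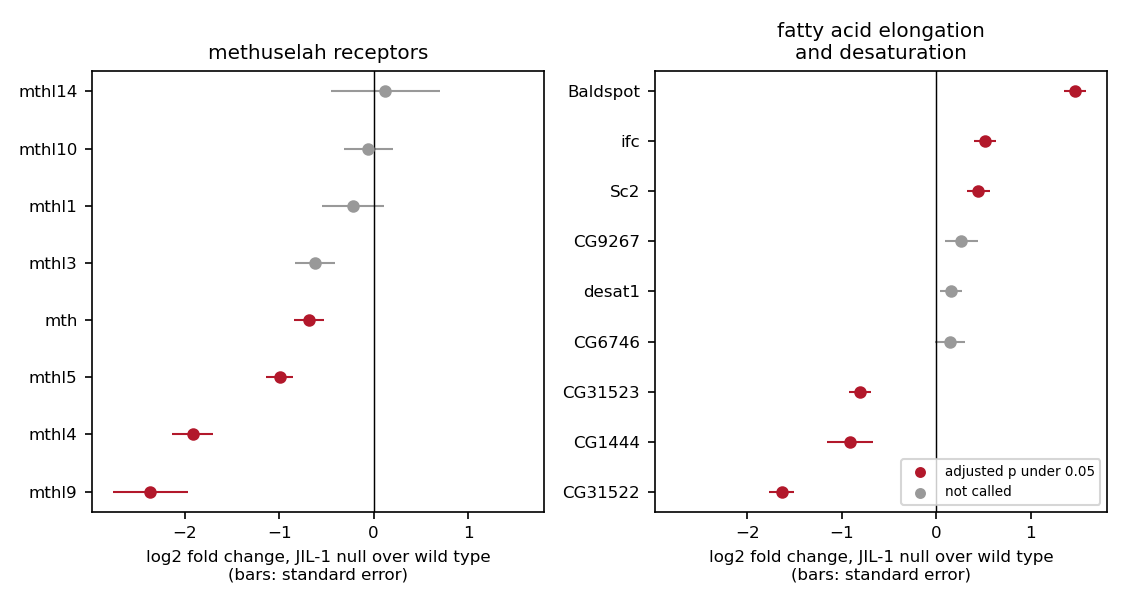
Log2 fold change of JIL-1 null over wild type with its standard error for tested methuselah receptor genes (left) and fatty acid elongation and desaturation genes (right), without mthl8 and Elo68alpha, which were chosen by this contrast. Red points passed the edgeR test at an adjusted p under 0.05; those on the left are all below 0, and 3 on the right are above 0 and 3 below it.

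In the Tweedle family TwdlT was higher in JIL-1 null, while Twdlalpha had 0 and 0 counts in JIL-1 null and 22 and 105 in wild type, at least 25.0-fold lower in JIL-1 null. TwdlG likewise fell, to 2 and 0 counts in JIL-1 null against 17 and 46 in wild type (adjusted p = 0.00992 by edgeR). TwdlE and TwdlC, with log2 fold changes of -1.63 and 0.86, did not pass the test (adjusted p = 0.0626 and 0.148 by edgeR). The class I mannosidase gene alpha-Man-I and the related CG11874, relatives of alpha-Man-Ic, rose with log2 fold changes of 0.68 ± 0.14 and 0.38 ± 0.09 (adjusted p = 0.0157 and 0.0292 by edgeR). The replication genes Mcm2, Mcm7 and Mcm5, distant relatives of rec, rose with log2 fold changes of 0.80 ± 0.18, 0.71 ± 0.18 and 0.60 ± 0.18, and Mcm3, Mcm6 and Mcm10 did not pass the test. None of the mannosidase and MCM calls held without JIL-1 null library 1, where the adjusted p of alpha-Man-I was 0.0749 and that of Mcm2 was 0.0715 (edgeR). Without JIL-1 null library 2 the adjusted p was 0.0692 for TwdlG and 0.0631 for Twdlalpha. The relatives of Nep3, DIP-kappa and IFT54 that could be tested did not pass the test, and that of Mco1 had too few counts.

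Markers of other tissues were measured because several members are best known outside the gland. Of 13 listed neuron genes 10 were in the table. Of 4 tested, 1 rose and 2 fell, beside 13.5% and 17.2% of all tested genes. The one that rose was CadN, a neural cadherin gene that met the thresholds and was set aside by name, with 108 and 151 counts in JIL-1 null and 6 and 3 in wild type. The pan-neuronal gene elav had 74 and 74 counts in JIL-1 null and 36 and 52 in wild type and did not pass the test (adjusted p = 0.376 by edgeR). The sum of the 10, CadN included, was 52.3 and 48.5 CPM of the column sum in JIL-1 null and 62.8 and 73.3 CPM in wild type. That direction rested on Syt1, a synaptic vesicle gene with 176 and 255 counts in JIL-1 null and 275 and 480 in wild type. Without Syt1 the sum of the other 9 genes was 30.5 and 26.0 CPM in JIL-1 null and 18.6 and 16.8 CPM in wild type. Those 9 still include CadN, which met the thresholds on this same contrast. With TMM factors CadN was at 13.4 and 12.8 CPM in JIL-1 null and 0.939 and 0.38 CPM in wild type. The higher sum is therefore not read as a rise of neuron genes. The part of neurons in the levels of bdl and DIP-kappa was not tested. Of 21 listed testis genes 8 were in the table, and the 1 tested, mia, did not pass. Their sum was 4.46 and 5.98 CPM in JIL-1 null and 3.54 and 3.53 CPM in wild type, in which Elo68beta is included. Of 14 ovary and germ line genes 10 were in the table, with 0 higher and 2 lower of 4 tested by edgeR (0 and 2 at an unadjusted p under 0.05, 0 and 1 by DESeq2). Their sum was 21.4 and 23.0 CPM in JIL-1 null and 27.3 and 27.2 CPM in wild type. Without grk, an oocyte signalling gene that fell (adjusted p = 0.0124 by edgeR, and 0.0928 without JIL-1 null library 2), the sum of the other 9 was 10.5 and 14.1 CPM in JIL-1 null and 8.84 and 8.59 CPM in wild type. Among these, piwi, of the piRNA pathway, had 32 and 38 counts in JIL-1 null and 13 and 19 in wild type and did not pass the test (adjusted p = 0.170 by edgeR). The yolk protein genes Yp1 and Yp2 had 7 and 27 and 7 and 35 counts in JIL-1 null, and 2 and 1 and 2 and 6 in wild type. Yp3 had 9 and 24 counts in JIL-1 null and 5 and 11 in wild type (adjusted p = 0.517 by edgeR). Besides grk the gene called lower was exu, with 11 and 21 counts in JIL-1 null and 26 and 31 in wild type (adjusted p = 0.0321 by edgeR). The part of germ line cells in the levels of shu and rec was not tested.

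Epidermis and cuticle marker sums were higher in library 1 of each genotype. Over all tested genes edgeR called 13.5% higher and 17.2% lower. Besides TwdlT 7 listed genes were in the table, and edgeR called 0 higher and 2 lower of 6 tested, as did DESeq2 and an unadjusted p under 0.05. Their sum was 38.4 and 4.75 CPM in JIL-1 null libraries 1 and 2, and 60.4 and 15.3 CPM in wild-type libraries 1 and 2. The larval cuticle gene Lcp4 had 145 and 2 counts in JIL-1 null and 87 and 4 in wild type, whereas TwdlT had 42 and 64 counts in JIL-1 null and 1 and 1 in wild type. CG6761, with 458 and 120 counts, was also higher in JIL-1 null library 1, but had 0 counts in wild-type library 1. The part of carried-over epidermis in its level was not tested.

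In the other tissue lists between 1 and 12 genes were tested. Their calls stand beside 13.5% higher and 17.2% lower among all tested genes. By edgeR, fat body genes had 1 higher and 4 lower of 8 tested, muscle genes 1 and 2 of 11, imaginal disc genes 1 and 2 of 8, and gland genes 2 and 3 of 12. Haemocyte genes had 0 higher and 4 lower of 6 tested, midgut genes 0 and 5 of 8, and glia genes 0 and 3 of 4, and in these 3 lists 0 were higher at an unadjusted p under 0.05 or by DESeq2. Tracheal genes had 0 higher and 1 lower of 6 tested and Malpighian tubule genes 0 and 1 of 3, with 1 higher in each at an unadjusted p under 0.05 and 0 by DESeq2. Male accessory gland and ejaculatory duct genes had 0 and 0 of 2 tested and prothoracic gland genes 0 and 0 of 1, with 0 higher by DESeq2 and, at an unadjusted p under 0.05, 1 and 0 higher. The midgut sum was 22.5 and 22.7 CPM in JIL-1 null and 107 and 477 CPM in wild type, so that wild-type library 2 carried the most midgut transcripts. Jon25Bii, a digestive protease gene, had 4 and 8 counts in JIL-1 null and 8 and 455 in wild type. Without wild-type library 2, 2 midgut genes were called lower, and without wild-type library 1, 8 were.

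The list of chromatin partners of JIL-1 and of dosage compensation had 13 tested genes, JIL-1 included, with a median log2 fold change of 0.02. DESeq2 called 0 of them higher and 1 lower. By edgeR 1 rose and 2 fell, beside 13.5% and 17.2% of all tested genes. These were msl-2, of the dosage compensation complex, with a log2 fold change of 0.49 ± 0.14 (adjusted p = 0.0445), and Su(var)3-7, a heterochromatin protein gene, with -0.49 ± 0.11 (adjusted p = 0.0239), besides JIL-1 (edgeR). Without JIL-1 null libraries 1 and 2 in turn, 0 of the 13 were called in either direction.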

How the data were processed

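RNA-seq of salivary glands was deposited as a single table. It holds raw counts, one whole number per gene and library, which the authors deposited for 2 JIL-1 null and 2 wild-type libraries. Per the file headers it also holds RPKM for each genotype, a fold change, and for the test a p-value with its false discovery rate, all made by the authors; of these only RPKM and the false discovery rate are printed. Alignment used GSNAP and the build BDGP5 or dm3, according to the submitters' processing notes. The program that counted reads, the annotation, the use of strand and the authors' test were not given in the sources used here.

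The rule used CPM of the deposited column sums. The test was that of edgeR 4.0.16, run in R 4.3.3 (quasi-likelihood test, two-sided, TMM factors, a count minimum of 10 and a total minimum of 15 by filterByExpr), which kept 7958 genes, with Benjamini-Hochberg adjustment over all of them and calls at 0.05. Standard errors come from the F statistic. Libraries of a genotype differed beyond sampling noise (chi-square per degree of freedom 9.17 for JIL-1 null and 23.4 for wild type). The procedure was also run on simulated data with the same dispersion for every gene. That dispersion was not estimated from these libraries, so the run does not cover their spread. DESeq2 1.42.0 and limma 3.58.1 (voom) were alternatives. Gene order, overlap and current symbols come from an annotation of another build (BDGP6, Ensembl), which placed 9523 genes of the table and not 408, so no coordinates are printed.

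The members, the 18 gene lists and the alternatives were chosen with earlier results of these data known. Named members are mthl8, Elo68alpha, the 15 with the most CPM in JIL-1 null, those next to a threshold, those whose JIL-1 null libraries differ by over 2-fold and adjacent members; the others are named by role or range. Among neighbours, relatives and lists up to 3 higher and 3 lower called genes by adjusted p were named; further genes were named after their values were seen. Families were taken from gene symbols, because the planned protein alignment was not run.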

Additional observations from a re-analysis of the deposited data

How the results depend on the processing

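Counts over all genes depended on the fit. Upper quartile factors gave a median log2 fold change over all genes of 0.17, against 0.03 with TMM, and 1690 higher and 1154 lower genes, so that 59.4% of called genes were higher, against 1077, 1369 and 44.0% with TMM. DESeq2 gave 587 higher and 1199 lower (32.9%), the replicate block 961 and 1300, and limma-voom 1040 and 1364. Leaving out each library in turn gave between 195 and 1186 higher and between 524 and 1612 lower genes, the fewest without JIL-1 null library 2. The same left between 2 and 12 higher and between 2 and 5 lower neighbours, between 2 and 7 higher and between 1 and 9 lower relatives, and between 17 and 60 called list genes against 49 with all libraries. DESeq2 called 3 relatives higher, and 3 were lower among genes of at least 5 CPM. Neighbours that overlap no member gave 7 higher and 4 lower.

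The rule found 35 genes, and 29 with TMM-scaled CPM, all of them among the 35. With a lower threshold of 0.5 or 2 CPM it found 15 and 75, and with an upper threshold of 2 or 5 CPM 65 and 18. Without one library it found between 49 and 61, since fewer values must pass. The exchanged rule found 36, and 19, 85, 65 and 18 at these thresholds, or between 44 and 77 without one library. Of the 35 genes 24 overlap no other gene of the table. For 39 genes tested singly, 318 of 421 alternative fits kept the call, 103 lost it and 0 changed sign.

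Same-numbered libraries of the genotypes did not deviate together (correlation across genes -0.0543), and with the replicate block 8 neighbours were higher and 5 lower. With 2 libraries per genotype and 0 to 14 wild-type counts per gene, depth limits every fold given for the 35 genes.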
